A study of Rattus norvegicus with 47 samples.

Results

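Cytochrome P450 genes of families 1 to 4 code for the membrane-bound oxidases that handle drugs, steroids, fatty acids and other small lipids. They were taken from the count table by symbol, as every gene whose name starts with Cyp, a family number from 1 to 4, a subfamily letter and a member number. The rule gave 60 of the 22525 genes in the table, with 3 in family 1, 34 in family 2, 7 in family 3 and 16 in family 4. P450 genes of later families, such as the vitamin D enzymes Cyp24a1 and Cyp27b1, are outside it. Of the 60 genes, 37 had enough reads to be tested and 23 did not. Among the untested genes, Cyp2b15, Cyp2c12 and Cyp2g1 had 0 counts in all 47 libraries.

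The libraries came from kidneys of rats that carried small metal cylinders for 12 months after surgery. Inert tantalum (Ta) cylinders served as the reference. The metals set against it were Al (aluminum), Co (cobalt), Pb (lead), W (tungsten) and DU, which is depleted uranium. There were 7 libraries for Pb and 8 for each of the other 5 metals, each with a code of its own in the labels, and rats were put into groups at random. All rats, the Ta controls included, had the surgery and an implant, and a group without an implant was not analysed here. Strain, sex, age and the place of the implant are not given in the labels used here. RNA came from bulk kidney tissue, so fewer cells of a type and less RNA per cell cannot be told apart.

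As background, P450 enzymes sit in the endoplasmic reticulum and take electrons from the reductase coded by Por to put oxygen into their substrates. Family 1 answers to the aryl hydrocarbon receptor. Families 2 and 3 oxidise many drugs and steroids, and some members of family 2 turn arachidonic acid into epoxides. Family 4 hydroxylates the end of fatty acid chains. In the kidney many of these enzymes lie in the proximal tubule, and their arachidonic acid products act on salt transport and vessel tone.

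Total counts per library ran from 21604755 to 35775818, with a median of 26363810. The 60 genes together took 0.385% ± 0.0368 of all counts in Ta (SD, n = 8), 0.419% ± 0.0510 in W (n = 8), 0.420% ± 0.0713 in Co (n = 8), 0.371% ± 0.0606 in Al (n = 8), 0.347% ± 0.0265 in Pb (n = 7) and 0.328% ± 0.0730 in DU (n = 8). Levels below are CPM, which are counts scaled to a common library size with the TMM factor, and are compared between libraries and never between genes, since no gene lengths were used. The tissue label was checked on marker lists. All 14 markers of proximal tubule segments S1 and S2 and all 9 of segment S3 were above 0 in all 47 libraries. Of 9 adrenal markers, Cyp11a1, Cyp21a1, Hsd3b1 and Scarb1 were above 0 in all 47 libraries, while Cyp11b1 and Cyp11b2 were at 0 in 44 and 43; of the 6 tested, 2 were higher and 1 lower in Pb. Of the hepatocyte genes Cyp7a1 was at 0 in 44 and Ttr in 23. Of 11 tested hepatocyte markers 4 were higher than Ta in Pb, 3 in Co, 3 in DU, 2 in Al and 1 in W. Over all genes tested, 24.5% were higher in Pb, 13.6% in Co, 7.89% in DU, 12.8% in Al and 1.42% in W, and 29.2% were lower in Pb. The summed level of the hepatocyte markers was 44.6 to 73.9 CPM in Ta and 38.6 to 3923 in DU, where Fgb alone reached 3888. Their part in the results was not tested.

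Against Ta, edgeR's quasi-likelihood test with Benjamini-Hochberg adjustment and a threshold of 0.05 called 16 of the 37 tested genes in Pb, 8 in Co, 4 in DU, 2 in Al and 1 in W. In Pb that was 43.2% of the tested members against 53.7% of all genes tested: 11 members rose (29.7% against 24.5%) and 5 fell (13.5% against 29.2%). In Co it was 21.6% against 25.8%, with 7 that rose (18.9% against 13.6%) and 1 that fell (2.7% against 12.2%). In DU it was 10.8% against 15.3%, with 1 that rose (2.7% against 7.89%) and 3 that fell (8.11% against 7.39%). In Al it was 5.41% against 25.2%, with 2 that rose (against 12.8% of all genes) and none that fell (against 12.4%), while 7 members had an unadjusted p under 0.05. In W it was 2.7% against 1.78%, with 1 that fell (against 0.366%) and none that rose (against 1.42%). The share called was below that of all genes for 4 of the 5 metals, so the number of changed members is not a result about this family. All 5 comparisons share the 8 Ta libraries.

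The median log2 fold change of the 37 members was 0.23 for Co, 0.19 for W, 0.13 for Pb, 0.07 for Al and -0.06 for DU. Over all genes tested it was -0.07, -0.03, -0.07, -0.04 and -0.01. Of the 37 members, 17 were called for no metal, 11 for 1 metal, 7 for 2 and 2 for 3. The genes called for 3 metals were Cyp4f6, in Co, Al and Pb, and the barely expressed Cyp1a2, in Al, Pb and DU. Cyp1a2 passed the read filter mainly through libraries of Al, Pb and DU. A test of any difference among the 6 groups called 22 of 37 members, 59.5% against 58.4% of all genes. A test among the 5 metals without Ta called 19, 51.4% against 53.2%.

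**Figure D1:**
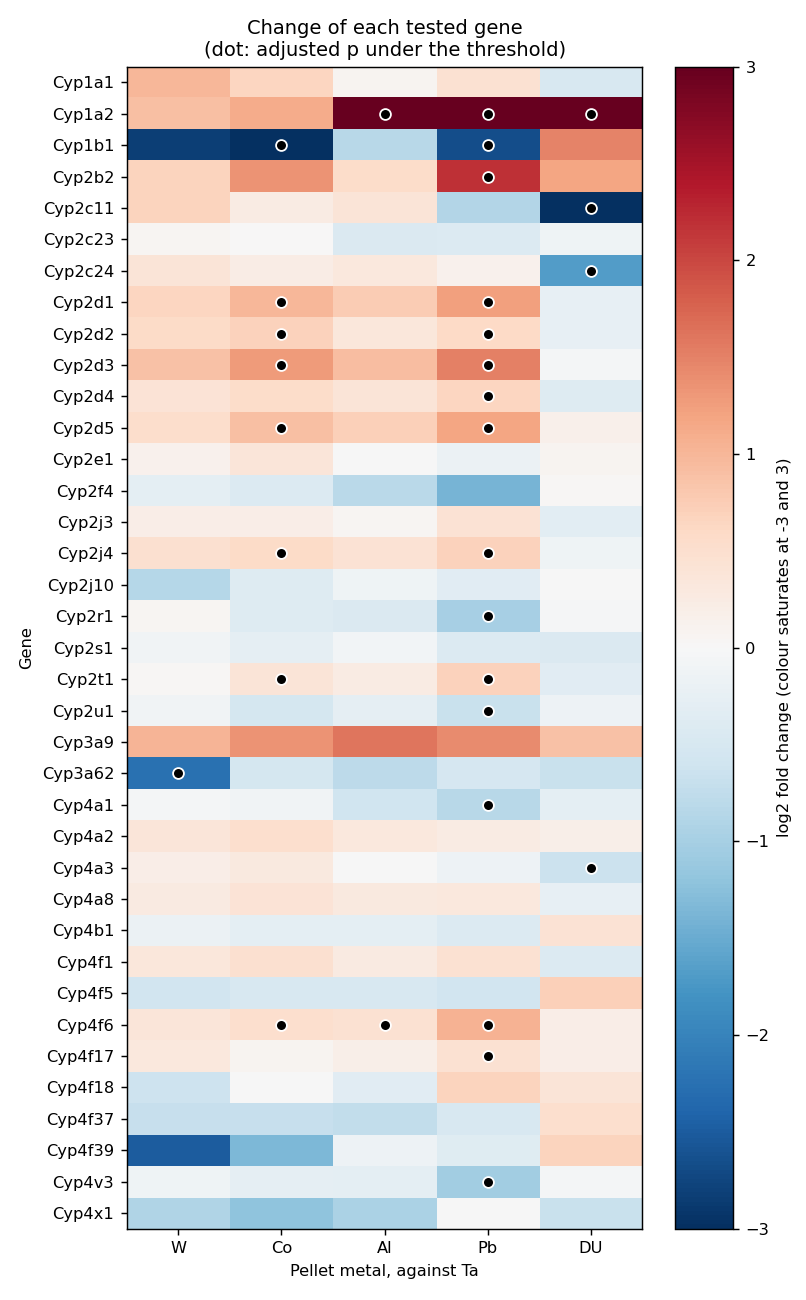
Each row is one of the 37 tested genes and each column a metal against Ta; colour gives the log2 fold change, from blue (lower) to red (higher), saturating at -3 and 3, and a dot marks an adjusted p under the threshold. The dots gather in the Co and Pb columns of the Cyp2d genes, while Cyp2c11 and Cyp2c24 carry a dot in the DU column.

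Transcripts of Cyp2c11 and Cyp2c24 fell in kidneys of rats with DU pellets. Cyp2c11 codes for a steroid hydroxylase and arachidonic acid epoxygenase that is the main male-pattern P450 of rat liver, and Cyp2c24 codes for a related enzyme. The lowest, median and highest CPM of Cyp2c11 were 6.74, 24.2 and 100.03 in Ta and 0.443, 3.93 and 9.998 in DU. Of the 8 DU libraries, 7 lay below every Ta library, and all 8 lay below the Ta median. The change was the largest fall among the members in DU (log2 fold change -3.29 ± 0.61 SE, adjusted p = 0.000162). Cyp2c24 had 14.9, 50.7 and 75.3 CPM in Ta and 7.22, 14.9 and 29.4 in DU. All 8 DU libraries lay below the Ta median and 4 below every Ta library (log2 fold change -1.68 ± 0.35 SE, adjusted p = 0.000674).

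Both falls were also seen without DU replicate 6, a library that stood apart for many members (described further on). Without it, the log2 fold change was -3.09 for Cyp2c11 (adjusted p = 0.000399) and -1.60 for Cyp2c24 (adjusted p = 0.00193). In that comparison 3 members fell and 1 rose, while 12.3% of all genes were called (4.8% lower and 7.5% higher). With replicate 5 left out as well, the values were -2.95 (adjusted p = 0.00131) and -1.48 (adjusted p = 0.00611); 2 members then fell and none rose, against 11.3% of all genes called (3.76% lower and 7.54% higher) and 9 members with an unadjusted p under 0.05. DU was also lower than each other metal for both genes. For Cyp2c11 the log2 fold change of DU was -3.95 against W, -3.55 against Co, -3.68 against Al and -2.42 against Pb, with adjusted p of 5.99e-05, 0.000131, 0.000580 and 0.000945. All 8 DU libraries lay below all 8 Co libraries. For Cyp2c24 the same 4 values were -2.07, -1.91, -1.99 and -1.81, with adjusted p of 0.000102, 0.000219, 0.000837 and 6.19e-05.

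Neither gene passed the test against Ta for W, Co, Al or Pb. In Pb, Cyp2c11 had 8.52, 21.1 and 33.8 CPM, with a log2 fold change of -0.87 to Ta (adjusted p = 0.206). Against W, whose libraries had 4.80, 50.5 and 174 CPM, Pb was lower (log2 fold change -1.53 ± 0.59 SE, adjusted p = 0.0342). Cyp2c23, which codes for the main arachidonic acid epoxygenase of rat kidney, was called for no metal. Its CPM were 1001, 1208 and 1444 in Ta, 564, 918 and 1146 in Al, 661, 883 and 1113 in Pb and 155, 1086 and 1922 in DU. The lowest DU value was that of replicate 6, and the next lowest was 834 CPM. The other 5 genes of the subfamily, Cyp2c6v1, Cyp2c7, Cyp2c12, Cyp2c13 and Cyp2c22, had too few reads to be tested.

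Markers of proximal tubule segment S3 were looked at beside these falls, and their DU and Ta ranges overlapped. The mean log2 CPM of the 9 S3 markers was 5.71 to 7.15 in Ta and 4.28 to 6.76 in DU. In the DU group replicates 5 and 6 were lowest, at 5.004 and 4.28, and the summed level of the list was 776 to 4117 CPM in DU and 1319.9 to 5033 in Ta. Of the 9 markers, 1 fell in DU, where 7.39% of all genes fell, and 8 were not called. All 9 were above 0 in the DU libraries. In a fit with the S3 level as a covariate, Cyp2c11 had a log2 fold change of -1.71 (adjusted p = 0.0445) and Cyp2c24 -0.86 (adjusted p = 0.115), so only Cyp2c11 was still called. The balance of ribosomal protein genes to genes for very large proteins, described with the Pb results, was also higher in DU than in Ta. It was 2.27 to 3.23 in DU and 1.18 to 2.12 in Ta, without overlap. With it as a covariate Cyp2c11 had a log2 fold change of -2.87 (adjusted p = 0.00995) and Cyp2c24 -1.68 (adjusted p = 0.0174). In that fit the balance and DU cannot be told apart. Whether a change of S3 cells has a part in these falls was not tested.

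**Figure D2:**
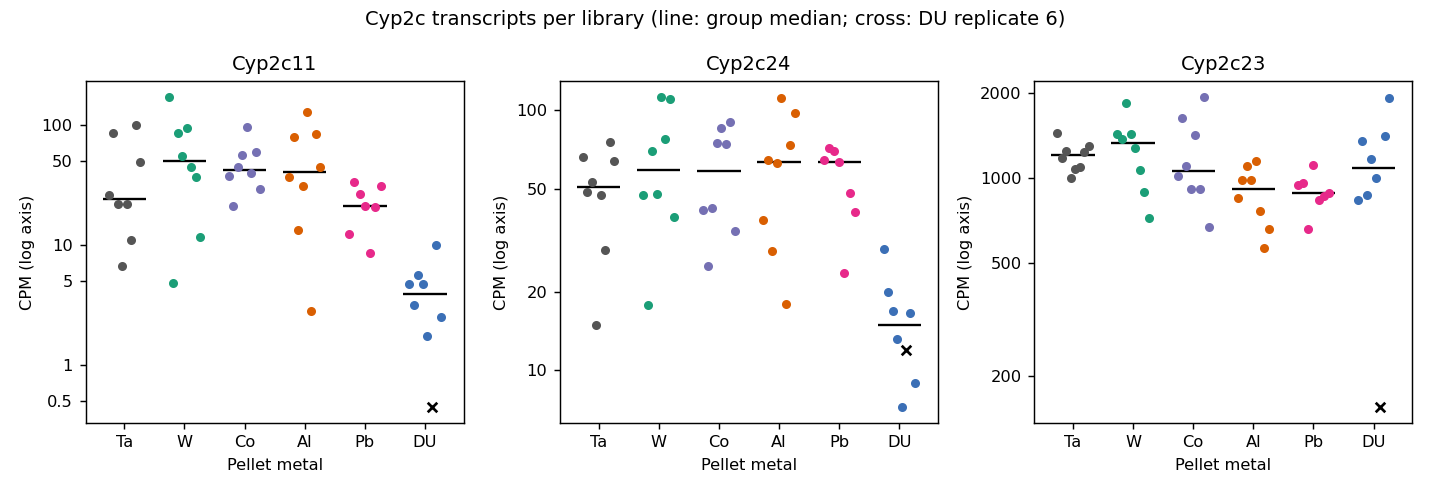
CPM of 3 Cyp2c genes on a log axis, 1 point per library by pellet metal, with the group median as a line and DU replicate 6 as a cross. For Cyp2c11 the DU points lie between 0.443 and 9.998 CPM, 7 of the 8 below every Ta point, and for Cyp2c23 replicate 6 lies far below the other DU points.

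The sequences before these gene starts are shown because both genes fell in DU and lie on the same chromosome and strand. They are the 250 bases before the start in the RefSeq table of build GRCr8, from chr1:246174966-246175215 for Cyp2c11 and chr1:246286091-246286340 for Cyp2c24, both on the plus strand and written 5′ to 3′. Capitals mark matches on either strand to AGGTCA (a nuclear receptor half-site), TGTTCT (part of a steroid receptor site, which reads AGAACA on the other strand) and the TATA box letters TATAAA.
Cyp2c11: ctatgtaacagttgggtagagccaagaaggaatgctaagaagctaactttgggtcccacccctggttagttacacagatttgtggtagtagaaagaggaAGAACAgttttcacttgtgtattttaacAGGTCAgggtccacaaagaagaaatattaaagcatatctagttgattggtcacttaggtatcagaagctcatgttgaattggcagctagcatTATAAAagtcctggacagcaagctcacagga
Cyp2c24: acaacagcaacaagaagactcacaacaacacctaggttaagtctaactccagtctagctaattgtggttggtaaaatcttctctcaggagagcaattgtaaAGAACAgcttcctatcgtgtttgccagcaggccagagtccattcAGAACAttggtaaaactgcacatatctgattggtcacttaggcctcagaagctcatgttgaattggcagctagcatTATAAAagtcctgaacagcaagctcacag
Aligned end to end, the 2 sequences were identical at 64.2% of columns, and they share an unbroken run of 45 bases that holds the TATAAA match: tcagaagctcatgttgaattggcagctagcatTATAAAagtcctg. The same comparison of Cyp2c11 with Cyp2c23 gave 46.9%. Whether likeness of these sequences has a part in the falls was not tested. TATAAA lies 31 bases before the start of Cyp2c11 and 29 before that of Cyp2c24. It was in 31.2% of the 48 member promoters with 1 sequence and in 12.9% of all 33469 promoters, AGGTCA in 31.2% and 14.1%, and TGTTCT in 16.7% and 17.5%. The other motifs searched on both strands were GTTAAT (HNF1; 8.33% of members and 6.45% of all), TTCNNNGAA (STAT factors; 8.33% and 7.67%) and GCGTG (the aryl hydrocarbon receptor core; 25% and 25.9%), which are in neither sequence. A match describes letters and does not show that a factor binds.

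The Cyp2d genes rose together in Pb and, in part, in Co. The subfamily codes for liver and kidney enzymes that oxidise many basic drugs, and all 5 members were tested. All 5 rose in Pb and 4 rose in Co, with no call in W, Al or DU. The median log2 fold change over the 5 genes was 1.18 in Pb, 0.91 in Co, 0.71 in Al, 0.57 in W and -0.24 in DU. Their log2 fold changes were above 0 for all 5 genes in W, Co, Al and Pb, and for 1 of 5 in DU. The 5 genes have similar sequences, and how the authors' counting split reads that map to several of them is not given in the sources used here, so the split between members is uncertain.

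Cyp2d1, the classical drug-oxidising member of the rat subfamily, had 40.5, 119 and 172 CPM in Ta, 124.02, 220.3 and 380.3 in Co and 209, 281 and 332 in Pb. The Pb and Ta libraries did not overlap (log2 fold change 1.22 ± 0.32 SE, adjusted p = 0.00109), and 6 of 8 Co libraries lay above every Ta library (log2 fold change 1.01 ± 0.31 SE, adjusted p = 0.0139). Cyp2d3, a low-level member, had 0.215, 1.15 and 1.33 CPM in Ta, 1.08, 1.94 and 4.77 in Co and 1.496, 2.32 and 4.76 in Pb. Here too Pb and Ta did not overlap (log2 fold change 1.51 ± 0.41 SE, adjusted p = 0.00187), and 5 of 8 Co libraries lay above every Ta library (log2 fold change 1.28 ± 0.40 SE, adjusted p = 0.0166). Without Co replicate 8 the Co call on Cyp2d3 was lost (1.05, adjusted p = 0.0511).

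Cyp2d5 had 32.4, 80.8 and 119 CPM in Ta, 80.3, 135.4 and 201 in Co and 119, 164 and 212 in Pb. In Pb, 6 of 7 libraries lay above every Ta library (log2 fold change 1.18 ± 0.35 SE, adjusted p = 0.00415), and in Co 5 of 8 did (log2 fold change 0.91 ± 0.34 SE, adjusted p = 0.0433). Cyp2d2 had 174, 228 and 319.7 CPM in Ta, 292, 376 and 519 in Co and 259, 365 and 489 in Pb. It rose in Co (log2 fold change 0.69 ± 0.26 SE, adjusted p = 0.0412) and in Pb (log2 fold change 0.60 ± 0.26 SE, adjusted p = 0.0490), with overlap in both. Cyp2d4, the member best known from brain, had 21.9, 34.3 and 46.8 CPM in Ta and 35.9, 54.7 and 74.5 in Pb (log2 fold change 0.66 ± 0.25 SE, adjusted p = 0.0239). Without Pb replicate 3 this call was lost (0.57, adjusted p = 0.0595).

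Several of these calls lie close to the threshold. The Co call on Cyp2d2 was lost without any one of Ta replicates 1, 2, 4 and 6 or Co replicates 5, 6 and 7, and its highest adjusted p was 0.0905. The Pb call on Cyp2d2 was lost without any one of 10 libraries (highest adjusted p = 0.112), and the Co call on Cyp2d5 without any one of 8 (highest adjusted p = 0.0896). Ta replicate 4 held the lowest Ta value of Cyp2d1, Cyp2d2, Cyp2d4 and Cyp2d5. With Ta replicates 4 and 6 both left out, none of the 4 Co calls was kept: the adjusted p was 0.0626 for Cyp2d1, 0.0604 for Cyp2d3, 0.109 for Cyp2d2 and 0.152 for Cyp2d5. The Pb calls on Cyp2d1, Cyp2d3 and Cyp2d5 were kept in that fit.

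**Figure D3:**
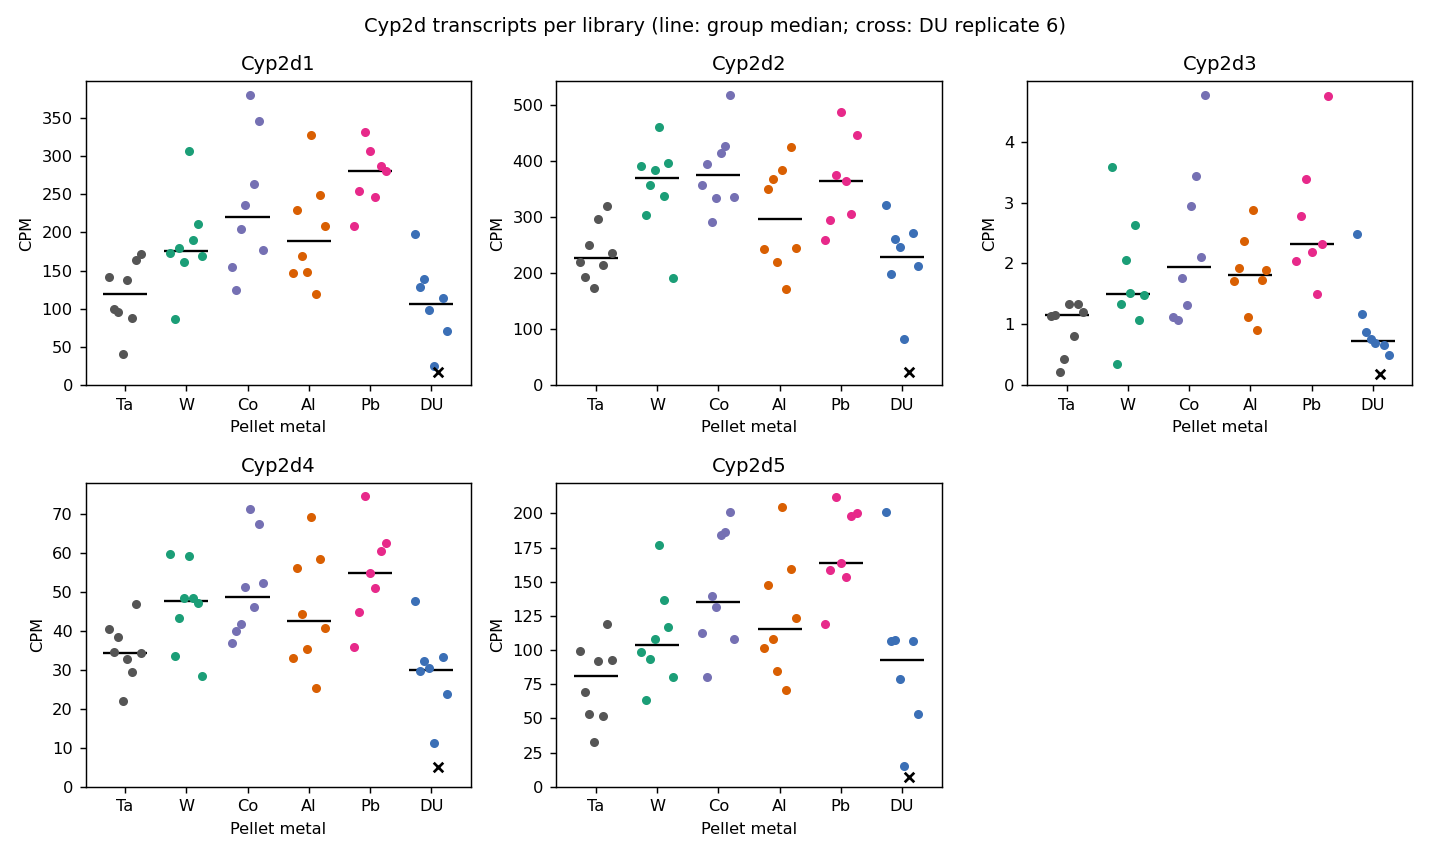
CPM of the 5 Cyp2d genes on linear axes from 0, 1 point per library by pellet metal, with the group median as a line and DU replicate 6 as a cross. Pb points of Cyp2d1 lie at 209 to 332 CPM, above the highest Ta point of 172, and DU replicate 6 is the lowest DU point in each panel.

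The 3 genes with the largest rises, Cyp2d1, Cyp2d3 and Cyp2d5, lie on the minus strand of the same chromosome in GRCr8, with the 250 bases before their starts at chr7:115793431-115793680, chr7:115802143-115802392 and chr7:115784488-115784737. They are printed because the 3 genes moved together and share long runs of bases; capitals mark TTTATA, which is TATAAA on the other strand.
Cyp2d1: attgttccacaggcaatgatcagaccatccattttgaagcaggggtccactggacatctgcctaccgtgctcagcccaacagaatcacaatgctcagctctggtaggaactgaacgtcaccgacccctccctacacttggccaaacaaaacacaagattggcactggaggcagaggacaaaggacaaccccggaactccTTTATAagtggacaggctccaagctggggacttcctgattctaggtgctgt
Cyp2d3: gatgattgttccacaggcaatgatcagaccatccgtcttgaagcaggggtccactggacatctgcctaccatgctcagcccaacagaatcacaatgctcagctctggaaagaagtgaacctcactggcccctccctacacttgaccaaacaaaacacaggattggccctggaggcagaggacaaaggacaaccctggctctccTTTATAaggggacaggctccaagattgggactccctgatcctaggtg
Cyp2d5: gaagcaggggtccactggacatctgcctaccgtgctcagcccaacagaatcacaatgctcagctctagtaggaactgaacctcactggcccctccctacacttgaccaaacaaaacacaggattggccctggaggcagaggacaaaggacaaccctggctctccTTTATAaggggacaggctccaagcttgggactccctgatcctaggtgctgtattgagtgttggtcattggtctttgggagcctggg
Identity over the aligned columns was 89% between Cyp2d1 and Cyp2d3, 70.5% between Cyp2d1 and Cyp2d5 and 70.9% between Cyp2d3 and Cyp2d5. The TATAAA match lies 51, 47 and 86 bases before the starts of Cyp2d1, Cyp2d3 and Cyp2d5. Cyp2d3 and Cyp2d5 share an unbroken run of 112 bases. Cyp2d2 and Cyp2d4 had 45.6% and 48.7% identity to Cyp2d1. Whether likeness of these sequences has a part in the changes was not tested.

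Among the other family 2 genes, Pb held most of the calls. Cyp2j4, an arachidonic acid epoxygenase, had 15.9, 28.9 and 38.0 CPM in Ta, 20.9, 43.6 and 59.9 in Co and 42.0, 44.7 and 51.2 in Pb. Pb and Ta did not overlap (log2 fold change 0.70 ± 0.23 SE, adjusted p = 0.00792). Co rose with overlap (log2 fold change 0.58 ± 0.22 SE, adjusted p = 0.0462), a call that was lost without any one of 9 libraries (highest adjusted p = 0.117). Cyp2t1, a little-studied member, had 17.7, 20.9 and 37.1 CPM in Ta and 31.3, 38.3 and 42.1 in Pb, with 4 of 7 Pb libraries above every Ta library (log2 fold change 0.69 ± 0.15 SE, adjusted p = 0.000161). Its rise in Co (log2 fold change 0.38 ± 0.15 SE, adjusted p = 0.0478) was lost without any one of 10 libraries (highest adjusted p = 0.124).

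Cyp2r1, which codes for a hydroxylase of the first step of vitamin D activation, fell in Pb. It had 4.39, 6.90 and 7.98 CPM in Ta and 2.53, 3.22 and 4.09 in Pb, without overlap (log2 fold change -0.99 ± 0.33 SE, adjusted p = 0.00923). Cyp2u1, a fatty acid hydroxylase, had 2.65, 5.89 and 8.88 CPM in Ta and 2.37, 4.06 and 5.62 in Pb, and all 7 Pb libraries lay below the Ta median (log2 fold change -0.66 ± 0.22 SE, adjusted p = 0.0111). Cyp2b2, the phenobarbital-inducible member, had 0, 0.78 and 4.44 CPM in Ta and 1.31, 5.31 and 14.2 in Pb, and 6 of 7 Pb libraries lay above every Ta library (log2 fold change 2.19 ± 0.72 SE, adjusted p = 0.00949). Cyp2b2 also had the widest spread within groups, with an SD of 1.58 on the log2 scale, so its fold change rests on low and uneven levels.

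The ethanol-oxidising Cyp2e1 was called for no metal, with 231, 283 and 352 CPM in Ta and 14.3, 337 and 471 in DU. Cyp2s1, Cyp2f4, Cyp2j3 and Cyp2j10 were not called against Ta either. Cyp2s1 had 11.6, 18.5 and 26.2 CPM in Ta and 9.44, 12.4 and 19.2 in DU, and Cyp2j3 had 6.46, 9.46 and 15.7 in Ta and 5.49, 13.4 and 16.02 in Pb. Of these, Cyp2f4, best known from lung, had the largest change in Pb (log2 fold change -1.39, adjusted p = 0.0906) at 0.0774, 0.365 and 1.79 CPM.

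A pair of measures of the libraries differed between Ta and some of the metals. The first is the level of the 14 markers of proximal tubule segments S1 and S2, whose mean log2 CPM was 7.88 to 8.40 in Ta, 6.004 to 7.19 in Pb, 6.44 to 7.80 in Al and 6.48 to 8.87 in Co. It was 6.13 to 8.74 in W and 5.68 to 8.78 in DU. Of the 14, 10 fell and 1 rose in Pb, 5 fell and 1 rose in Al, and none fell and 1 rose in Co. None was called in W or DU. Of all genes, 29.2% fell in Pb and 12.4% in Al. The second is the balance between ribosomal protein genes and genes for very large proteins, as the difference of their mean log2 CPM. It was 1.70 ± 0.32 in Ta (SD, n = 8), 2.08 ± 0.26 in W (n = 8), 2.51 ± 0.40 in Co (n = 8), 2.54 ± 0.34 in DU (n = 8), 2.66 ± 0.46 in Al (n = 8) and 3.47 ± 0.50 in Pb (n = 7). Al had 2 member calls and Co 8, with none on a Cyp2d gene in Al, and no member was called between Al and Co. Against Ta, the log2 fold changes of all 5 Cyp2d genes were above 0 in both. With the S1 and S2 level as a covariate, 5 of the 16 Pb members stayed called and 2 of the 8 in Co. With the balance as a covariate, 1 of 16 and 1 of 8 did. Of the Cyp2d calls, the first fit kept Cyp2d3 in Pb and the second kept none. The log2 fold changes of Cyp2d1 to Cyp2d5 in Pb were 1.22, 0.60, 1.51, 0.66 and 1.18 without a covariate, 0.70, 0.65, 1.297, 0.50 and 0.70 with the S1 and S2 level, and 1.25, 0.65, 1.44, 0.99 and 1.40 with the balance. With the balance, the fold change was not smaller for 4 of the 5 genes, and the adjusted p was 0.152 to 0.391. The balance was 1.18 to 2.12 in Ta and 3.02 to 4.46 in Pb, without overlap. The S1 and S2 level did not overlap between Ta and Pb or between Ta and Al either. In both fits the measure and Pb therefore cannot be told apart, nor can the S1 and S2 level and Al. Beyond these values, the part of both measures in the results was not tested.

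Family 1 genes, the textbook targets of the aryl hydrocarbon receptor, gave calls at very low levels only. Cyp1a1, which oxidises polycyclic aromatic hydrocarbons, was called for no metal, with 11.2, 44.1 and 78.1 CPM in Ta, 37.5, 64.1 and 187 in W and 0.0694, 26.7 and 110.1 in DU. Its values varied widely within groups (SD 1.57 on the log2 scale), and DU replicates 5 and 6 held 0.0694 and 1.59 CPM.

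Cyp1a2, mainly a liver enzyme, had 8 and 4 counts in Ta replicates 1 and 4 and 0 in the other 6 Ta libraries. It had 0.0305 to 1.48 CPM in Al, 0.0511 to 1.39 in Pb and 0.0695 to 1.05 in DU, with no library at 0, and was called in Al (log2 fold change 3.22 ± 1.03 SE, adjusted p = 0.0177), Pb (log2 fold change 3.40 ± 1.05 SE, adjusted p = 0.00544) and DU (log2 fold change 3.19 ± 1.02 SE, adjusted p = 0.0270). The highest count in any library was 40, so the fold changes depend on a handful of reads. The highest value was 0.212 CPM in Ta, 0.485 in W and 0.336 in Co. Cyp1a2 thus passed the read filter mainly through Al, Pb and DU, the groups then called, so the filter and the calls are not independent. With no filter the adjusted p was 0.0283 in Al, 0.00963 in Pb and 0.0390 in DU. The Al call was lost without Al replicate 5 (adjusted p = 0.0561). The DU call was lost without Ta replicate 2 (adjusted p = 0.0552), Ta replicate 8 or DU replicate 8, and when DU replicates 5 and 6 were both left out (adjusted p = 0.0570).

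Cyp1b1, which acts on steroids and is expressed in stromal cells, had 0, 0.395 and 2.96 CPM in Ta. It was at 0 in 6 of 8 Co libraries, with 6 and 2 counts in the remaining ones (log2 fold change -3.98 ± 1.08 SE, adjusted p = 0.00638), and fell in Pb, where it had 0, 0 and 0.585 CPM (log2 fold change -2.66 ± 1.03 SE, adjusted p = 0.0275). Ta replicate 4 held the highest Ta value, 83 counts. Without it the Pb call was lost (log2 fold change -1.78, adjusted p = 0.137), as it was without any one of Pb replicates 1, 4, 5 and 7, while the Co call stayed (log2 fold change -3.08, adjusted p = 0.0306). In DU it had 0.0663, 1.45 and 4.93 CPM and was not called against Ta (log2 fold change 1.49, adjusted p = 0.273). DU replicates 5 and 6 held the highest DU values, and the DU mean was 1.99 CPM with them and 1.09 without. Against W, Co and Pb, DU was higher, with log2 fold changes of 4.31, 5.47 and 4.14 (adjusted p = 0.00275, 0.000672 and 0.00147). The mean log2 CPM of 9 fibroblast and pericyte markers was 5.34 to 6.75 in Ta, 4.97 to 6.95 in DU, 3.12 to 5.69 in Co and 3.86 to 4.30 in Pb. It was 3.93 to 5.57 in Al and 3.81 to 5.74 in W. Of the 9, 7 were lower in Co, 8 in Pb, 5 in Al and 2 in W, against 12.2%, 29.2%, 12.4% and 0.366% of all genes. Cyp1b1 was not called in Al (log2 fold change -0.84) or W (-2.82). The part of these markers in the Cyp1b1 values was not tested.

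Family 3 was nearly silent. Of its 7 members, which in liver oxidise steroids and many drugs, only Cyp3a9 and Cyp3a62 were tested. Cyp3a62 fell in W, from 0.291, 0.542 and 1.69 CPM in Ta to 0, 0.106 and 0.485 in W, with 7 of 8 W libraries below every Ta library (log2 fold change -2.25 ± 0.59 SE, adjusted p = 0.0436). This single W call rests on 0 to 14 counts in the W libraries and was lost without any one of 8 libraries (highest adjusted p = 0.111). Cyp3a9 was not called, at 0, 0.233 and 1.14 CPM in Ta and 0.549, 0.953 and 4.14 in Al. 

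The 23 untested members were Cyp2a3, Cyp2g1, Cyp2a1, Cyp2a2, Cyp2b1, Cyp2b3, Cyp2c6v1, Cyp2c7, Cyp2c12, Cyp2c13, Cyp2c22, Cyp3a2, Cyp3a18, Cyp3a23-3a1, Cyp4f4, Cyp4f40, Cyp2b12, Cyp2b15, Cyp2b21, Cyp2j16, Cyp2w1, Cyp3a71-ps and Cyp3a73. The highest count of any of them in a library was 38, for Cyp3a2, which had reads in 8 of 47 libraries. Cyp2a3 had reads in 27 libraries and Cyp4f4 in 22, with highest counts of 27 and 18.

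In family 4, Cyp4f6 and Cyp4v3 changed in opposite directions in Pb, each by about the same size on the log2 scale. Cyp4f6 belongs to the enzymes that hydroxylate leukotrienes and other fatty acid products. It had 34.6, 44.6 and 60.1 CPM in Ta and 73.5, 95.2 and 124.6 in Pb, without overlap (log2 fold change 1.05 ± 0.13 SE, adjusted p = 3.13e-09). It also rose in Co, to 46.7, 64.7 and 75.6 CPM (log2 fold change 0.50 ± 0.12 SE, adjusted p = 0.00308), and in Al, to 47.7, 63.8 and 76.3 CPM (log2 fold change 0.45 ± 0.12 SE, adjusted p = 0.00567). W, at 46.4, 58.4 and 73.5 CPM, did not pass the test (log2 fold change 0.36, adjusted p = 0.0916). Its spread within groups was the lowest of the tested members, with an SD of 0.25 on the log2 scale. The Pb level was also above that of W, Co and Al, by 0.69, 0.55 and 0.59 on the log2 scale (adjusted p = 2.58e-05, 0.00111 and 0.00139).

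Cyp4v3, a fatty acid hydroxylase related to a human gene of retinal dystrophy, had 11.3, 21.1 and 26.8 CPM in Ta and 7.78, 9.39 and 11.9 in Pb. Of the 7 Pb libraries, 5 lay below every Ta library (log2 fold change -1.05 ± 0.15 SE, adjusted p = 2.05e-07). Pb also did not overlap with W, Co, Al or DU, and the log2 fold changes of Pb were -0.91, -0.78 and -0.75 to the first 3 of these. In the fit with the balance covariate Cyp4f6 was still called in Pb (log2 fold change 0.69, adjusted p = 0.0326) and Cyp4v3 was not (-0.48, adjusted p = 0.203). The balance did not overlap between Pb and Ta, so this fit cannot tell the balance and the metal apart. Cyp4f17 rose in Pb, from 7.55, 8.93 and 11.4 CPM in Ta to 8.34, 12.5 and 17.5 (log2 fold change 0.46 ± 0.16 SE, adjusted p = 0.0143), a call lost without Pb replicate 6 (adjusted p = 0.0552).

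The Cyp4a genes code for the main enzymes that hydroxylate the end of the arachidonic acid chain in rat kidney. Cyp4a1 fell in Pb, from 53.3, 58.5 and 115 CPM in Ta to 26.5, 36.5 and 59.6 in Pb, and 6 of 7 Pb libraries lay below every Ta library (log2 fold change -0.82 ± 0.24 SE, adjusted p = 0.00340). Cyp4a3 fell in DU, from 265, 422 and 647 CPM in Ta to 58.4, 282 and 376. All 8 DU libraries lay below the Ta median and 2 below every Ta library (log2 fold change -0.66 ± 0.20 SE, adjusted p = 0.0183). Without DU replicate 6 the log2 fold change was -0.47 (adjusted p = 0.0302), and without replicates 5 and 6 it was -0.44 (adjusted p = 0.0613), which did not pass the threshold. It was also lost without Ta replicate 1 (adjusted p = 0.0839) or Ta replicate 2, and in the fit with the S3 level as a covariate (log2 fold change -0.10, adjusted p = 0.770).

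Cyp4a2, with 13.0, 21.7 and 34.5 CPM in Ta and 10.6, 23.9 and 32.9 in DU, was called for no metal, and neither was Cyp4a8, with 453, 584 and 708 CPM in Ta and 343, 457 and 881 in DU. The sequences before Cyp4a2 and Cyp4a3 are shown because they are nearly alike while only Cyp4a3 was called in DU; the difference between the genes was not tested. They are the 250 bases before the starts in GRCr8, at chr5:134170909-134171158 and chr5:134352237-134352486 on the minus strand, with AGGTCA in capitals.
Cyp4a2: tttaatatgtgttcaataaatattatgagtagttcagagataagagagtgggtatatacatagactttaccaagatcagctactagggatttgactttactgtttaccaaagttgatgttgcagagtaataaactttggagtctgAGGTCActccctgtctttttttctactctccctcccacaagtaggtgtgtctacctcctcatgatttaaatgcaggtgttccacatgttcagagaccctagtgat
Cyp4a3: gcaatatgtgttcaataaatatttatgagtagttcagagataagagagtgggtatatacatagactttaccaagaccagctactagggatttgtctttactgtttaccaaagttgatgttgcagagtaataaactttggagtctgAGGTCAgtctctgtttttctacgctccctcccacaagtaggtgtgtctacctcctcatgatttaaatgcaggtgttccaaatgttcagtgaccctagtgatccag
Identity over the aligned columns was 92.5%, with a shared unbroken run of 57 bases that ends in AGGTCA, 105 bases before both starts. The sequences of the transcripts may also be alike, so reads may not have been split cleanly between these genes.

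Of the remaining tested family 4 genes, Cyp4b1, Cyp4x1, Cyp4f1, Cyp4f5, Cyp4f18, Cyp4f37 and Cyp4f39 were not called against Ta. Cyp4f5 had 1.36, 3.26 and 7.202 CPM in Ta and 2.12, 4.75 and 17.3 in DU, where the highest value was replicate 6 (log2 fold change 0.72, adjusted p = 0.153). Cyp4f1 had 127.8, 207 and 253 CPM in Ta and 21.5, 173 and 225 in DU (log2 fold change -0.40, adjusted p = 0.235). Cyp4x1, Cyp4f18, Cyp4f37 and Cyp4f39 were near the limit of detection, with medians of 0.308, 0.167, 0.607 and 0.212 CPM in Ta. Of these, Cyp4f39 had the largest change, in W (log2 fold change -2.49, adjusted p = 0.187).

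**Figure D4:**
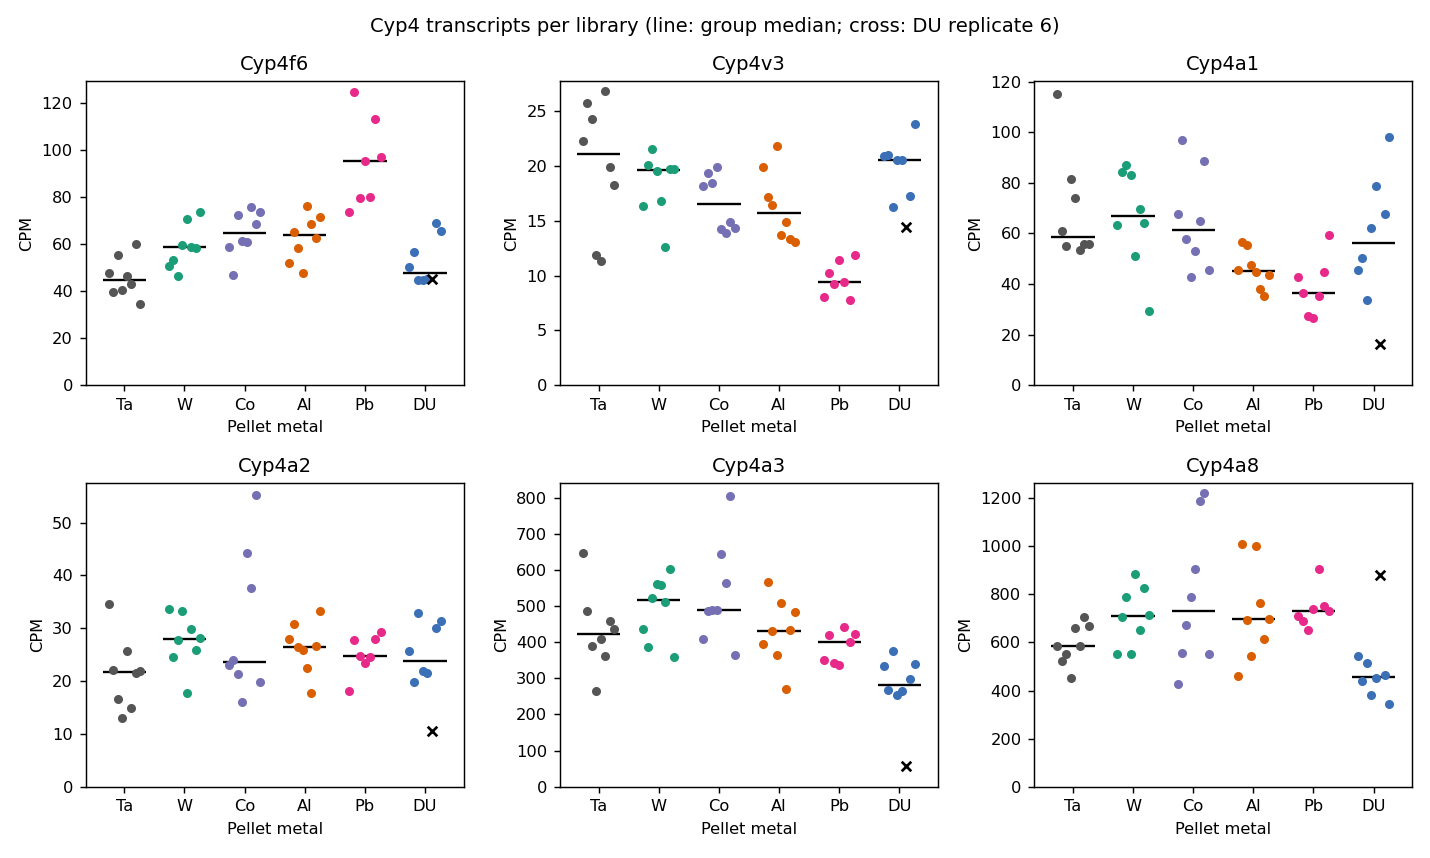
CPM of 6 family 4 genes on linear axes from 0, 1 point per library by pellet metal, with the group median as a line and DU replicate 6 as a cross. For Cyp4f6 the Pb points, 73.5 to 124.6 CPM, lie above all Ta points, and for Cyp4v3 the Pb points lie at 7.78 to 11.9 CPM, 5 of the 7 below every Ta point.

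Comparing the 5 metals with each other, without Ta, gave 72 member calls over 10 pairs, and 59 with DU replicates 5 and 6 left out. Of the 72, 20 separated DU from Pb. In that pair 6 members were higher and 14 lower in DU, which is 20 of 37, while 49.6% of all genes were called (25.9% higher and 23.7% lower). Those lower in DU included all 5 Cyp2d genes, Cyp2j3, Cyp2j4, Cyp2t1 and Cyp4f6, and those higher included Cyp2r1, Cyp2u1 and Cyp4v3. DU differed from Co in 3 higher and 11 lower members (25.2% of all genes called, 12.3% higher and 12.9% lower). It differed from W in 4 higher and 9 lower (20.7% of all genes, 9.88% and 10.8%) and from Al in 2 and 8 (12.7%, 5.67% and 7%). Pb differed from W in 4 higher and 5 lower members (39% of all genes, 17.5% and 21.5%), from Co in 1 and 2 (25.8%, 11.3% and 14.5%) and from Al in 2 and 1 (19.1%, 7.98% and 11.1%). Between Al and W edgeR called no member and 2.68% of all genes (1.93% higher and 0.75% lower); between Co and W and between Al and Co it called no member and 0% of all genes. In these 3 pairs 6, 2 and 3 members had an unadjusted p under 0.05.

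Cyp2c11, Cyp2c24, Cyp2d1, Cyp2d4, Cyp4a3, Cyp4a8 and Cyp4f1 were lower in DU than in each of W, Co, Al and Pb. Of these, only Cyp2c11, Cyp2c24 and Cyp4a3 were also called lower against Ta. Cyp4a8 was lower in DU than in W, Co, Al and Pb, with log2 fold changes of -0.50, -0.65, -0.53 and -0.56 and adjusted p of 0.0373, 0.00609, 0.0396 and 0.00922. Against Ta its log2 fold change in DU was -0.24 (adjusted p = 0.400). Cyp4f1 showed log2 fold changes of -0.74, -0.88, -0.67 and -0.86 in the same pairs, each with an adjusted p under the threshold. These values include DU replicate 6, which was lowest in DU for Cyp4f1, at 21.5 CPM against 94.0 in the next library. For Cyp4a8 the same replicate was highest in DU, at 881 CPM. Cyp4b1, an oxidase of fatty acids and aromatic amines, was higher in DU than in Co, Al and Pb, with log2 fold changes of 0.71, 0.72 and 0.84. Its DU libraries had 23.6, 27.5 and 43.4 CPM and its Pb libraries 14.1, 17.6 and 21.2, without overlap. Without DU replicate 6, the Cyp4b1 calls against Co and Al were lost (adjusted p = 0.0574 and 0.0809).

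A pair of DU libraries carried much of the low end of the family. Over the 29 tested members with a mean of at least 1 CPM, DU replicate 6 lay below every Ta library for 17 and DU replicate 5 for 15, while the other 6 DU libraries did so for 0 to 7. Replicate 6 was the lowest of all 47 libraries for 14 of the 29 and replicate 5 for 4. The median of the log2 ratio to the Ta median was -1.15 in replicate 6 and -0.47 in replicate 5, and -0.16 to 0.05 in the other DU libraries. The members' share of all counts was 0.168% in replicate 6. Macrophage markers had a mean log2 CPM of 6.38 and 5.57 in replicates 6 and 5 and 3.71 to 4.90 in the other DU libraries, against 2.93 to 5.14 in Ta. S1 and S2 markers stood at 5.68 in replicate 6 and 8.59 in replicate 5, against 7.88 to 8.40 in Ta. Whether these have a part in the low values was not tested.

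**Figure D5:**
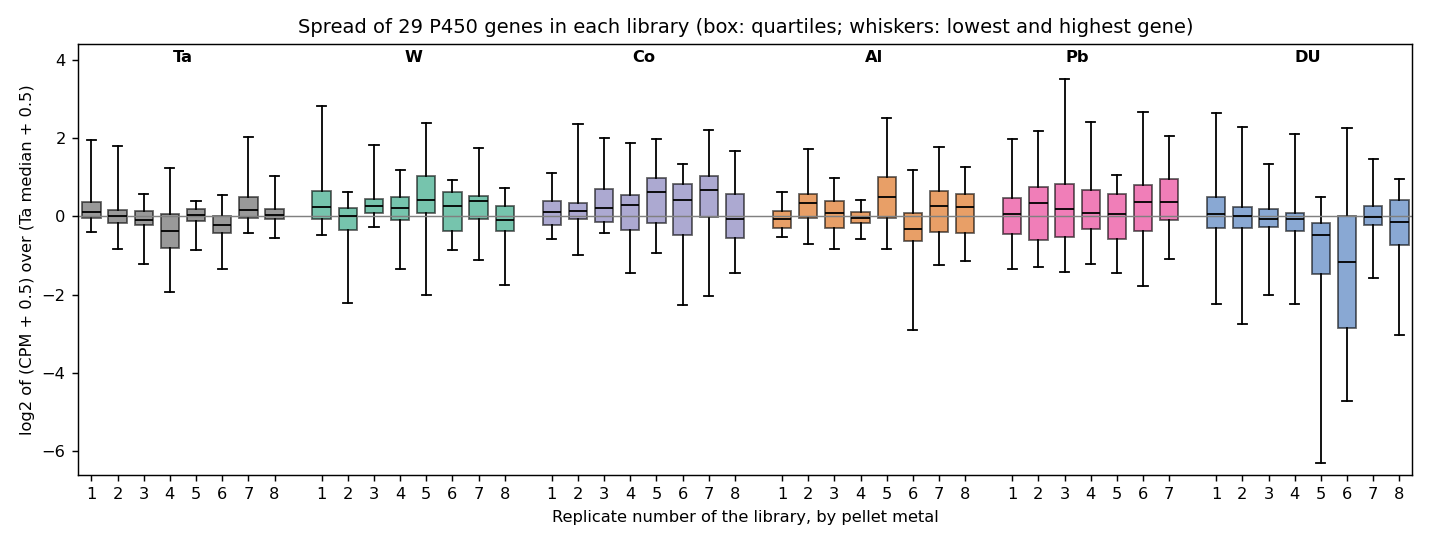
For each of the 47 libraries, by pellet metal and replicate number, the box gives the quartiles and the whiskers the lowest and highest of 29 members, as the log2 ratio of CPM to the Ta median with 0.5 added to both. The boxes of DU replicates 5 and 6 lie lowest, with medians of -0.47 and -1.15, against 0.66 in the highest library, Co replicate 7.

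Spread within groups differed widely between members. Its SD on the log2 scale was 0.25 to 0.31 for Cyp4f6, Cyp2t1, Cyp4v3 and Cyp4f17, and 1.33 to 1.58 for Cyp2c11, Cyp2f4, Cyp3a9, Cyp1a1 and Cyp2b2. A change of the size seen for Cyp4f6 in Al, 0.45, would therefore lie within the replicate spread of Cyp1a1, whose change in W, 1.00, did not pass the test (adjusted p = 0.298).

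Among the genes that work with P450 enzymes, Cyb5a rose for 3 metals. Of 7 electron transfer partners, 1 rose and 1 fell in Pb, 1 rose in Co, 1 rose in Al and 2 fell in DU, with none called in W. Cyb5a, the cytochrome that passes electrons to P450, rose in Pb (log2 fold change 0.99, adjusted p = 4.46e-07), Co (0.69, adjusted p = 0.000836) and Al (0.69, adjusted p = 0.000546). The reductases Cyb5r3 and Cyb5r1 fell in DU (-0.37, adjusted p = 0.00103, and -0.30, adjusted p = 0.0139). The median log2 fold change of the 7 genes was -0.06 in Pb and 0.06 in DU.

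Regulators of the family changed in both directions in Pb. Of 12 nuclear receptors and coregulators of lipid and drug handling, 2 rose and 5 fell in Pb, where 24.5% of all genes rose and 29.2% fell. The counts were 2 and 3 in Al (12.8% and 12.4% of all genes), 0 and 3 in Co (13.6% and 12.2%) and 1 and 2 in DU (7.89% and 7.39%). The median log2 fold change of the 12 was -0.22 in Pb. Nr3c1, the glucocorticoid receptor, fell in Pb (log2 fold change -2.03, adjusted p = 3.29e-10), and so did the coactivator Ppargc1a (-1.70, adjusted p = 4.31e-08). Both also fell in Co and Al. Esrra rose in Pb (0.40, adjusted p = 3.65e-05), Al (0.45, adjusted p = 2.60e-05) and DU (0.29, adjusted p = 0.00664).

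In Pb, PPAR alpha targets and conjugation enzymes changed in both directions, while epoxide hydrolases and eicosanoid enzymes gave lower calls only. Of 14 tested PPAR alpha targets outside the P450 genes, 3 rose and 6 fell in Pb, 2 and 1 in Co, 1 and 2 in Al and 2 and 0 in DU, with a median log2 fold change of -0.06 in Pb. Cpt1a, the carnitine transferase of fatty acid oxidation, fell in Pb (log2 fold change -1.40, adjusted p = 5.91e-08), and Acaa1a, a thiolase of peroxisomes, rose (0.52, adjusted p = 8.02e-07). Of 18 tested conjugation enzymes and exporters, 5 rose and 8 fell in Pb, 4 and 1 in Co, 2 and 4 in Al and 0 and 3 in DU, with a median of -0.45 in Pb. Tpmt, a thiol methyltransferase, rose in Pb (1.12, adjusted p = 1.35e-06) and Sult1a1, a sulfotransferase, too (1.03, adjusted p = 1.81e-07), while the exporter Abcc4 fell (-1.09, adjusted p = 2.29e-06). Of 14 epoxide hydrolases and eicosanoid enzymes, none rose, 4 fell in Pb, and 1 fell in each of W, Co and DU, with a median of -0.31 in Pb. Hpgd, which breaks down prostaglandins, fell in DU (-1.06, adjusted p = 0.000535). None of the lists of regulators, PPAR alpha targets or conjugation enzymes held a call in W. These counts are to be read against the median of -0.07 over all genes in Pb and the 53.7% of all genes called in Pb, 25.8% in Co, 25.2% in Al, 15.3% in DU and 1.78% in W.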

How the data were processed

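Total RNA of kidney tissue was sequenced in 47 libraries. Per the submitters' processing notes, reads were aligned with STAR 2.7.2a to mRatBN7.2 and counted with featureCounts of Subread 1.6.4. The authors deposited raw counts per gene. The annotation, the strand setting and the handling of reads that map to several places are not given in the sources used here, so close paralogs (Cyp2b, Cyp2c, Cyp2d, Cyp3a and Cyp4a members) are uncertain. The labels name no batch. A further 29 lines whose sample cells were not all whole numbers were dropped.

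All 22525 genes of 47 libraries entered 1 edgeR 4.0.16 fit under R 4.3.3: filterByExpr (15868 genes kept), TMM scaling and the two-sided quasi-likelihood F test per comparison, with Benjamini-Hochberg adjustment over all genes tested and a threshold of 0.05. The SE of a fold change was taken from the F statistic. Mean log2 CPM of lists used a prior count of 2. The fit was tested on simulated data. Total counts of 21604755 to 35775818 set the counting error; the tests rest on variation among libraries of a group. Other settings were DESeq2 1.42.0, RLE factors, no filter, a strict filter (1 CPM in 7 libraries), replicate number as a block, marker covariates, only the groups compared, and each library left out; the S3 covariate, the balance covariate, and the fits that drop Ta replicates 4 and 6, or else DU replicates 5 and 6, were added once the data had been seen. The planned covariate and the naming order by gene length were not used, since the table gives no lengths. Described in full were up to 12 called members of at least 1 CPM with the smallest p, and a panel of well-known members; Cyp2b2, Cyp2f4, Cyp4f37 and Cyp4f39 were chosen after their values were seen. From each related list, at most 3 genes of lowest p are named. The list of the aryl hydrocarbon receptor and its battery is not reported here. Members and lists were chosen with earlier results of these data known. Promoters and symbols came from RefSeq tables of GRCr8: all 60 symbols matched, 48 had 1 promoter sequence, 7 had none and 5 had several starts and were not used. Promoter pairs were aligned end to end.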

Additional observations from a re-analysis of the deposited data

Results flagged for a closer look

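Over the 29 members with a mean of at least 1 CPM, 174 sets of a member in a group were screened for a library set far apart from the rest of its group, and 17 were found. Chance gives about 1 in 20 groups. DU replicate 6 held 9 of the 17. It was lowest for Cyp2c23 at 155 CPM, with the next DU library at 834. It was also lowest for Cyp2e1 at 14.3, Cyp2r1 at 0.664, Cyp2t1 at 9.12, Cyp4a2 at 10.6, Cyp4a3 at 58.4 and Cyp4f1 at 21.5 CPM. It was highest for Cyp2f4 at 5.13 and Cyp4f5 at 17.3 CPM.

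Ta replicate 4 was lowest in its group for Cyp2d1 at 40.5 CPM, W replicate 8 for Cyp2d2 at 191, Co replicate 7 for Cyp4b1 at 5.05 and Al replicate 6 for Cyp2r1 at 3.04. Al replicate 6 was highest for Cyp2j10 at 2.47 CPM, and W replicate 3 for Cyp2r1 at 12.7. Pb replicate 5 was lowest for Cyp2j3 at 5.49 and highest for Cyp4a8 at 906 CPM.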

How the results depend on the processing

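Counts of called members were 72 over the 10 pairs of metals, 22 among all 6 groups, 19 among the 5 metals without Ta, and 16 in Pb, 8 in Co, 4 in DU, 2 in Al and 1 in W against Ta. Leaving out each library in turn gave 60 to 79 over the pairs, 19 to 24, 14 to 21, 14 to 17 in Pb, 4 to 11 in Co, 2 to 5 in DU, 1 to 5 in Al and 0 to 2 in W. Co fell to 4 without any one of Ta replicates 2, 4 and 6 or Co replicates 5, 6 and 7, DU to 2 without Ta replicate 2, and Al came to 1 without Al replicate 5 and 5 without Ta replicate 7. In W the count was 0 without Ta replicate 4 or 6 or W replicate 1, 4, 5, 7 or 8, and 2 without W replicate 3. With the S1 and S2 covariate the counts were 13 among all 6 groups, 5 in Pb, 2 in Co, 0 in Al (2 at an unadjusted p under 0.05) and 0 in W (6). With the balance covariate they were 14, 1 in Pb, 1 in Co, 2 in DU, 0 in Al (2) and 0 in W (10). With the S3 covariate they were 33 over the pairs, 10 among the 5 metals and 5 in Al. Fits of only the groups compared gave 7 in Al, 2 in DU and 0 in W (10). No filter gave 8 in DU and 0 in W (17), and the strict filter (7) and DESeq2 (9) gave 0 in W. Without Ta replicates 4 and 6, Co had 2 and W 0 (5), and without DU replicates 5 and 6, DU had 2. The S1 and S2 level did not overlap between Ta and Pb or Al, nor the balance between Ta and Pb or DU. For these metals such a fit cannot tell the measure and the metal apart. Where a call was lost, the cause was not tested.

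Of the 31 calls on single members against Ta, none changed direction under the other settings. RLE factors kept 31 of 31, DESeq2 29 of 29 it gave a value for, the strict filter 27 of 27, no filter 27 of 31, the S3 covariate 27 of 31, the fits of only the groups compared 22 of 25, the fit without Ta replicates 4 and 6 kept 20 of 31, the S1 and S2 covariate 11 and the balance covariate 4. Library numbers did not pair samples across groups: the correlation of deviations had a median of 0.0116 over 115 same-numbered pairs, 20 of which were over 0.1. With the replicate block, Al had 1 call instead of 2, and 28 of the 31 calls were kept; Cyp1a2 in Al and DU and Cyp2d2 in Pb had an adjusted p of 0.0599, 0.0807 and 0.0596. Members under about 1 CPM rest on few counts per library, and their fold changes are imprecise.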

Other observations

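P450 genes outside families 1 to 4 were looked at beside the members. Of 21 such genes in the table, 15 were tested, and 2 rose and 4 fell in Pb, 2 rose in DU, 1 rose and 1 fell in Al, 1 rose in Co and none was called in W. Over all genes tested, 24.5% rose and 29.2% fell in Pb, and 15.3% were called in DU, 25.2% in Al, 25.8% in Co and 1.78% in W. Cyp26c1, a retinoic acid hydroxylase, had a mean of 0.173 ± 0.351 CPM in Ta (SD, n = 8) and was higher in Al (log2 fold change 2.11, adjusted p = 0.0241), Co (2.32, adjusted p = 0.0146), Pb (2.17, adjusted p = 0.0102) and DU (2.02, adjusted p = 0.0433). Its Ta level is under 1 CPM, so these fold changes rest on few counts and are imprecise. The Cyp26c1 calls were not checked with libraries left out. Cyp51, the sterol demethylase of cholesterol synthesis, fell in Pb from 23.2 ± 4.59 to 14.9 ± 1.23 CPM (SD, n = 8 and 7; -0.64, adjusted p = 0.000929). Cyp21a1, a steroid hydroxylase of the adrenal cortex, rose in Pb from 2.92 ± 1.44 to 5.998 ± 2.25 CPM (1.04, adjusted p = 0.00124). Of the 6 tested adrenal markers, of which it is one, 2 were higher and 1 lower in Pb, with a median log2 fold change of 0.49. Cyp11a1, Hsd3b1 and Scarb1 were above 0 in all 47 libraries and Cyp11b1 was at 0 in 44.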
